A study of Mus musculus with 13 samples.

Results

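Collagen genes were taken as every gene whose symbol is Col, a number, a and a number, and 44 symbols in the table had that form. Col10a1, the type X collagen of growing cartilage, had no counts in any library and was dropped, which left 43 collagen genes among the 34745 genes of the table. The data are RNA-seq counts from whole mouse kidney in 13 libraries of 4 groups. The wild-type groups held 3 mice given 200 µL saline and 4 mice given 10 mg/kg lipopolysaccharide (LPS, a bacterial outer-membrane component used to model septic kidney injury), both by intraperitoneal injection, and the groups labelled as DsbA-L knockouts held 3 mice for each of the same treatments. All mice of the knockout groups are labelled as knockouts of DsbA-L, a thioredoxin-like protein encoded by Gstk1. These data hold no measure of the protein. The labels give neither strain, age, sex nor the time between injection and collection, and they call the saline groups naive. The saline libraries are numbered N1 to N3, and the LPS libraries carry animal numbers, AKI-12, AKI-13, AKI-317 and AKI-319 for wild type and AKI-156, AKI-320 and AKI-381 for knockout.

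Libraries held 14372212 to 17668334 counts each. Gstk1 had 297 to 830 counts in the wild-type libraries, 41 to 60 in knockout saline and 1 to 27 in knockout LPS, lower in the libraries labelled knockout. Xist, the transcript of the inactive X chromosome, had 11446 to 19041 counts in every saline library and 2 to 10 in every LPS library, while the Y-linked gene Ddx3y had 0 counts in saline and 951 to 2996 with LPS. By these transcripts the saline mice were female and the LPS mice male, so every difference between LPS and saline below is also one between the sexes and the 2 cannot be told apart, whereas knockout and wild type were compared within 1 sex. The interaction test below draws on all 4 groups, so in it treatment and sex cannot be told apart either. AKI-156 lay below AKI-320 and AKI-381 for many collagens, and the collagen calls that rest on the knockout LPS group are given with and without it. For those collagens, leaving it out raises the knockout LPS mean. All 8 tubular markers checked, among them Lrp2 and Umod, had counts in every library. In each genotype 7 of 8 fell with LPS (median log2 change -2.1 in wild type and -2.34 in the knockout). Over all tested genes 28.6% fell in wild type and 12.9% in the knockout. Kap, also among the 8, rose in wild type, from 3970 to 10600 CPM in the saline libraries of both genotypes to 16900 to 28600 with LPS. That rise, too, is also a difference between the sexes. The 8 summed to 15600 to 20600 CPM in wild-type saline and 19100 to 31800 in wild-type LPS. Kap made up most of the wild-type LPS sum, so that sum does not show the fall of the other markers. In the knockout the sums were 20600 to 23500 and 11200 to 13000 CPM. The part of these tubular changes in the collagen differences between LPS and saline was not tested. In whole kidney, fewer cells of a type and less RNA per cell cannot be told apart. Where no label says that libraries come from separate preparations, p-values measure the spread between these samples.

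Collagens are triple helices of alpha chains, each chain encoded by its own gene. Fibrillar collagens (types I, III and V among them) form the rope-like fibres of the interstitium and are made mainly by fibroblasts and related mesenchymal cells, while type IV collagen forms the sheet-like network of basement membranes. Most basement membranes hold chains alpha-1 and alpha-2 of type IV, and the mature glomerular basement membrane holds a network of alpha-3, alpha-4 and alpha-5 made by podocytes, the chains that are mutated in Alport syndrome.

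Of the 43 genes, 31 had enough counts to be tested and 12 did not. The untested genes were Col2a1, Col11a1, Col6a4, Col6a5, Col6a6, Col9a1, Col9a2, Col9a3, Col19a1, Col22a1, Col8a2 and Col25a1, and none of them passed 20 counts in any library. They include the cartilage collagens of types II and IX and the type XI chain Col11a1, while the type XI chain Col11a2 was tested. Collagen transcripts together took 0.179% ± 0.005 of all counts in wild-type saline (SD, n = 3), 0.165% ± 0.0132 in knockout saline (SD, n = 3), 0.154% ± 0.0282 in wild-type LPS (SD, n = 4) and 0.269% ± 0.0842 in knockout LPS (SD, n = 3). Levels of single genes are given as CPM, counts scaled to library size, with TMM scaling between libraries, and as CPM per kilobase of transcript where genes are compared with each other. Per kilobase, the most abundant collagens of wild-type saline kidney were Col4a3 at 36.7, Col4a1 at 30.1, Col4a4 at 25.5, Col4a2 at 22.3, Col18a1 at 13.3 and Col27a1 at 11.9. With LPS the order in wild type began with Col4a1 at 97.8 and Col4a2 at 53.5 CPM per kilobase, followed by Col18a1 at 12.5 and Col4a3 at 11.5. The type IV genes made up 69.3% ± 1.01 of collagen transcripts per kilobase in wild-type saline (SD, n = 3) and 81.3% ± 1.46 in wild-type LPS (SD, n = 4), and the fibrillar genes 13.4% ± 1.29 and 7.28% ± 1.37. In the knockout the type IV share was 73.5% ± 1.73 in saline and 76% ± 4.37 with LPS (SD, n = 3 each). The fibrillar share there was 11% ± 1.2 and 10.8% ± 1.84.

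**Figure D1:**
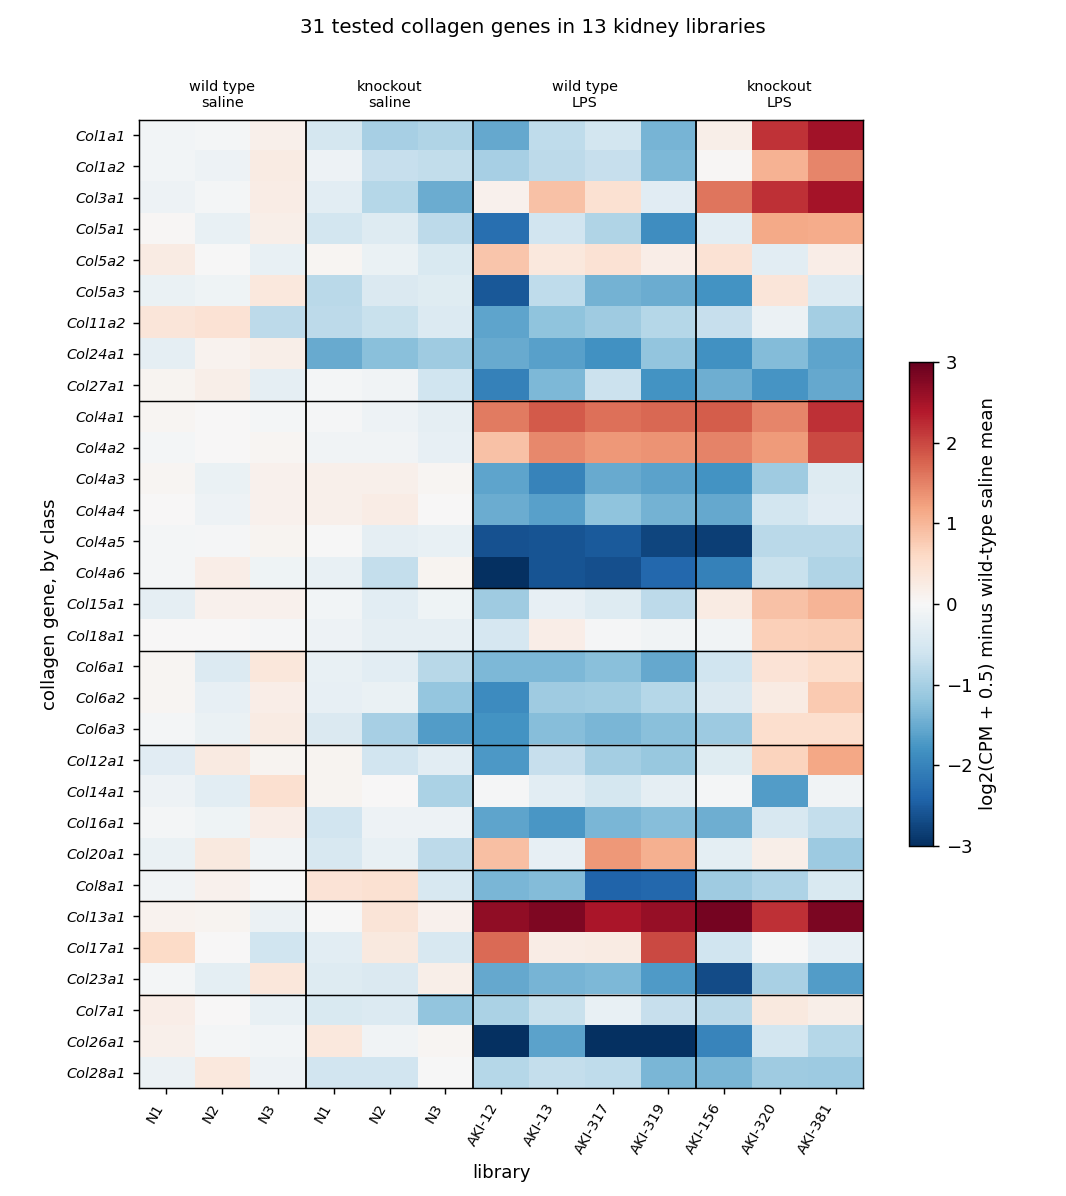
Each row is 1 of the 31 tested collagen genes, grouped by class, and each column 1 of the 13 kidney libraries. Colour gives log2(CPM + 0.5) minus the mean of wild-type saline, with red above and blue below that mean. Col4a1, Col4a2 and Col13a1 are red in all LPS libraries, and the fibrillar genes Col1a1, Col1a2 and Col5a1 are below the wild-type saline mean in all 4 wild-type LPS libraries and above it in AKI-320 and AKI-381.

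Log2 fold changes are given ± their standard error with Benjamini-Hochberg adjusted p-values from edgeR's quasi-likelihood test over 15703 genes, and a gene is said to rise or fall where that value was below 0.05. In wild-type kidney 3 of the 31 tested collagens rose with LPS, where 28.4% of all tested genes rose, and 21 fell, where 28.6% of all genes fell and 57% changed in either direction. The median log2 change of the collagens was -1.35, against 0 over all genes tested. In knockout kidney 10 collagens rose with LPS against a background of 14.7%, and 7 fell against a background of 12.9% (27.6% in either direction), with a median log2 change of 0.21 against 0.03 over all genes. With library totals in place of TMM scaling, 70.1% of the calls over all genes in the knockout were rises, against 53.3% with TMM, and 3 collagens fell instead of 7. Between the LPS groups, 13 collagens were higher in the knockout where 8.74% of all genes were, and 1 was lower where 6.29% were. The median log2 difference was 0.71, against 0 over all genes.

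The type IV genes lie in head-to-head pairs. Col4a1 (chr8:11198423-11312826, minus strand) and Col4a2 (chr8:11312805-11449287, plus strand) overlap by 22 bases at their annotated starts on GRCm38, and Col4a4 (chr1:82448423-82586849, minus) and Col4a3 (chr1:82586921-82722059, plus) start 71 bases apart. Col4a6 and Col4a5 form the third pair, on the X chromosome, with 1308 bases between their starts. The promoter windows of the first pair and of Col4a4 are shown because each holds the annotated starts of both genes of its pair. Sequences are RefSeq windows on GRCm38.p6 from 250 bases before to 50 after each start, 5′ to 3′ on the gene's strand, at chr8:11312777-11313076, chr8:11312555-11312854 and chr1:82586800-82587099. Capitals mark the 78 bases that the Col4a1 and Col4a2 windows share on opposite strands and, for Col4a4, the 71 bases between its start and that of Col4a3.
Col4a1: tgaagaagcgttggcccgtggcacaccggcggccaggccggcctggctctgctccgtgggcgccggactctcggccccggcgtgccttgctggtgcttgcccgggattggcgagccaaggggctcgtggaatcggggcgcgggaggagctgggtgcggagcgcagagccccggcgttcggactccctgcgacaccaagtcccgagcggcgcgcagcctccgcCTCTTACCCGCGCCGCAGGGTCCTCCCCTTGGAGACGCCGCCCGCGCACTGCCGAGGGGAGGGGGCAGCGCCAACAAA
Col4a2: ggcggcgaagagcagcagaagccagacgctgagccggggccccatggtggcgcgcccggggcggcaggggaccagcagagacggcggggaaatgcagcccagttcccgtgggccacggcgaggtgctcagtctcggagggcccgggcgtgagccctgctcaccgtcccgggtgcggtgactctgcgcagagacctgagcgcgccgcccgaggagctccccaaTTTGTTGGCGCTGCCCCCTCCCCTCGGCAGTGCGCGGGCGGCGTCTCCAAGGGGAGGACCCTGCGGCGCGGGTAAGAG
Col4a4: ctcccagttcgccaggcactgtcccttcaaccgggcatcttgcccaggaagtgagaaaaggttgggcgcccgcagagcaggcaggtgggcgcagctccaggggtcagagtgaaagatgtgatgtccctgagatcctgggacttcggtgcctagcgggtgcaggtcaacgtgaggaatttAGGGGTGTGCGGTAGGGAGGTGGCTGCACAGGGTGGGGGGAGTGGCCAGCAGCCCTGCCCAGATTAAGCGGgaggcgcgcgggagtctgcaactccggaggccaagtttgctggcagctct

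In wild-type kidney the Col4a1 and Col4a2 pair rose with LPS and the 4 other type IV genes fell. Col4a1 stood at 220, 215 and 203 CPM in wild-type saline N1 to N3 and at 628, 758, 670 and 703 in AKI-12, AKI-13, AKI-317 and AKI-319. The groups did not overlap, and the rise was 1.70 ± 0.18 on the log2 scale (adjusted p = 4.93e-06, edgeR). Col4a2 went from 146 to 160 CPM in saline to 283 to 419 CPM with LPS, a log2 rise of 1.26 ± 0.19 (adjusted p = 8.73e-05, edgeR). Col4a3, the chain that carries the Goodpasture autoantigen in human disease, stood at 414, 348 and 437 CPM in saline and at 133, 98.7, 140 and 131 with LPS. It fell by 1.67 ± 0.25 on the log2 scale (adjusted p = 9.48e-05, edgeR), and its partner Col4a4 fell by 1.43 ± 0.23 (adjusted p = 0.000137, edgeR), from 250 to 303 CPM down to 89 to 119. Col4a5, which completes the glomerular network, stood at 69, 70.2 and 75.2 CPM in saline and at 11.3, 11.5, 12.1 and 10.2 with LPS. Its log2 change was -2.66 ± 0.34 (adjusted p = 2.64e-05, edgeR). Col4a6, which pairs with alpha-5 in Bowman's capsule and some tubular basement membranes, had the largest log2 fall of the 6 genes, -3.26 ± 0.46 (adjusted p = 5.13e-05, edgeR), and 3 to 20 counts per library with LPS.

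In knockout kidney the Col4a1 and Col4a2 pair rose as well. Col4a1 stood at 208, 192 and 176 CPM in knockout saline and at 754, 590 and 975 in AKI-156, AKI-320 and AKI-381, a log2 rise of 2.01 ± 0.19 (adjusted p = 7.67e-06, edgeR), and Col4a2 rose by 1.77 ± 0.20 (adjusted p = 3.31e-05, edgeR). Without AKI-156 these rises were 2.03 and 1.83. Col4a3 stood at 441, 443 and 413 CPM in knockout saline and at 115, 189 and 306 with LPS, so that AKI-156 lay within the wild-type LPS range of 98.7 to 140 and the other 2 libraries above it. Col4a3 fell by 1.09 ± 0.27 on the log2 scale (adjusted p = 0.0089, edgeR) and by 0.81 without AKI-156. Col4a4 fell by 0.86 ± 0.24 (adjusted p = 0.0186, edgeR), a call that ended without knockout saline N1 or N2, under library totals and in the 2 knockout groups alone, and the fall was 0.57 without AKI-156. Col4a5 stood at 70.7, 59.3 and 60.9 CPM in knockout saline and at 9.64, 40.4 and 40.4 with LPS, with a log2 change of -1.08 ± 0.36 (adjusted p = 0.0386, edgeR). That call ended without any 1 of the 6 saline libraries, with adjusted p-values of 0.0521 to 0.11, as well as under library totals and in the 2 groups alone, and without AKI-156 the change was -0.65 ± 0.15 (adjusted p = 0.007, edgeR). Col4a6 had a log2 change of -0.91 ± 0.45 (adjusted p = 0.151, edgeR).

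Between the LPS groups, Col4a5 and Col4a6 were higher in the knockout. The log2 difference of Col4a5 was 1.42 ± 0.34 (adjusted p = 0.0157, edgeR), although AKI-156 at 9.64 CPM lay below all 4 wild-type libraries, and that of Col4a6 was 2.08 ± 0.46 (adjusted p = 0.0116, edgeR), with 2.06, 5.98 and 5.07 CPM against 0.22 to 1.52. Both calls ended without AKI-320 or AKI-381, with adjusted p-values from 0.0552 to 0.0914, as did that of Col4a5 in limma-voom, and without AKI-156 they were 1.84 and 2.41. Col4a3 differed by 0.69 ± 0.25 (adjusted p = 0.0767, edgeR) and Col4a4 by 0.71 ± 0.23 (adjusted p = 0.0501, edgeR), and without AKI-156 both passed, at 0.98 and 0.99. Col4a1 differed by 0.16 ± 0.17 (adjusted p = 0.529, edgeR) and Col4a2 by 0.36 ± 0.18 (adjusted p = 0.191, edgeR), and the difference in Col4a1 was -0.02 without AKI-381. No type IV gene passed the test of the interaction, which asks whether the LPS-saline difference itself differs between genotypes. Since that difference is also one between the sexes, the test cannot separate treatment from sex. Without AKI-156, Col4a4, Col4a5 and Col4a6 passed it, at 0.86, 2 and 2.69.

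**Figure D2:**
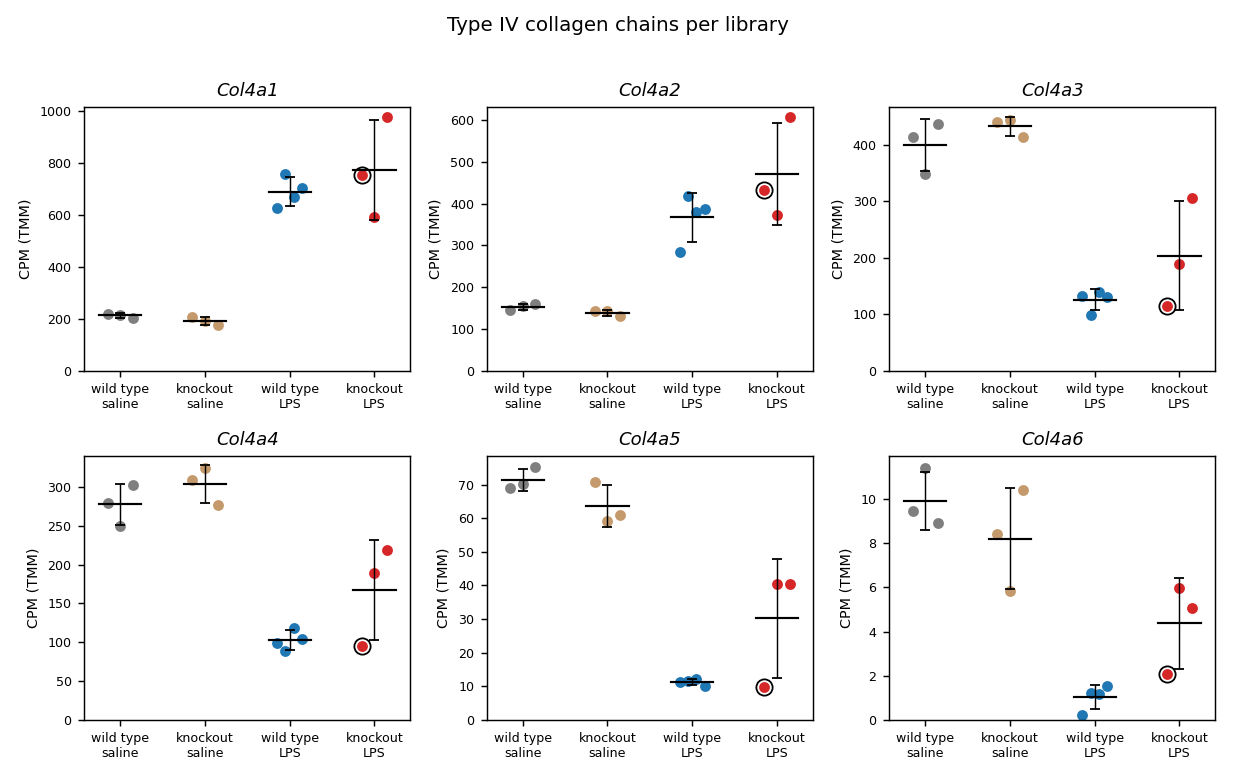
CPM with TMM scaling of the 6 type IV collagen genes in each library, by group. Points are libraries, black lines group means, bars SD, and AKI-156 is circled. Col4a1 and Col4a2 are higher in both LPS groups than in saline, Col4a3 to Col4a6 are lower in wild-type LPS, and AKI-156 lies with the wild-type LPS libraries for Col4a3, Col4a4 and Col4a5.

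The share of each chain among type IV transcripts differed between saline and LPS in both genotypes. Col4a1 and Col4a2 together made up 42.2% ± 2.49 of type IV transcripts per kilobase in wild-type saline (SD, n = 3), 38.3% ± 0.608 in knockout saline (SD, n = 3), 87.0% ± 2.2 in wild-type LPS (SD, n = 4) and 82.5% ± 6.07 in knockout LPS (SD, n = 3). The range was 40 to 44.9% in wild-type saline and 85.2 to 90% in wild-type LPS, so the groups lay far apart relative to their spread. In the knockout LPS libraries the share was 89.2% in AKI-156, 77.4% in AKI-320 and 80.8% in AKI-381. Total type IV signal was 125 ± 6.11 CPM per kilobase in wild-type saline (SD, n = 3) and 174 ± 14.6 in wild-type LPS (SD, n = 4). In the knockout it was 124 ± 6.81 in saline and 216 ± 55.5 with LPS (SD, n = 3 each). The ratio of Col4a1 to Col4a3 per kilobase was 0.83 ± 0.118 in wild-type saline (SD, n = 3), 0.686 ± 0.0386 in knockout saline (SD, n = 3), 8.72 ± 2.17 in wild-type LPS (SD, n = 4) and 6.65 ± 3.07 in knockout LPS (SD, n = 3).

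**Figure D3:**
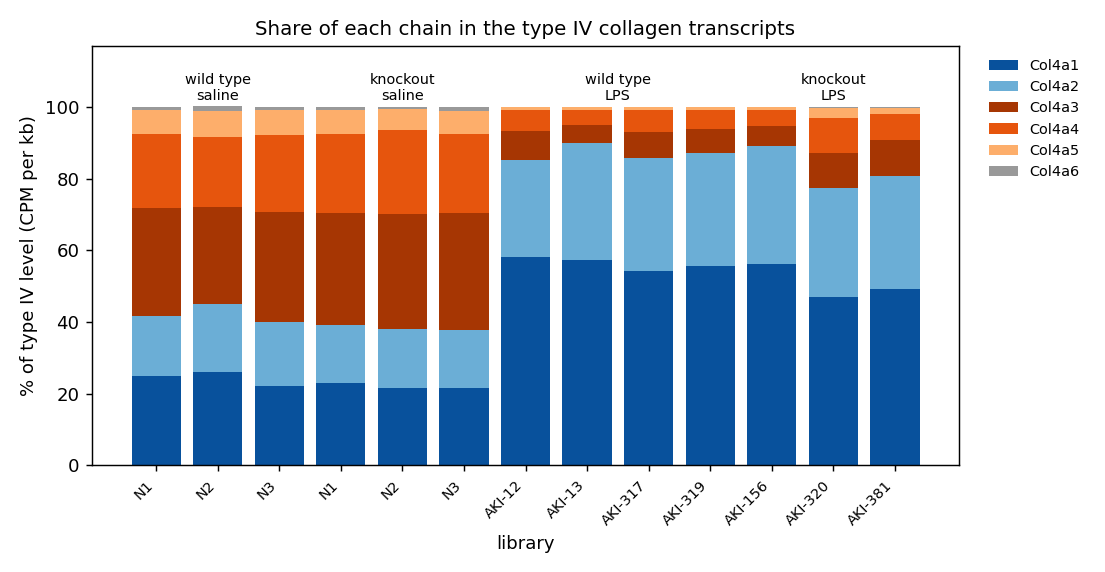
Stacked bars give the share of each of the 6 chains, in percent of type IV collagen transcripts per kilobase, in each of the 13 libraries. Col4a1 and Col4a2 together take 40 to 44.9% in wild-type saline and 85.2 to 90% in wild-type LPS, and AKI-156 at 89.2% is the highest of the knockout LPS libraries.

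Podocyte markers also differed between the groups. The 10 markers, among them the slit-diaphragm gene Nphs1, summed to 562 to 592 CPM in wild-type saline, 480 to 616 in knockout saline, 178 to 353 in wild-type LPS and 296 to 524 in knockout LPS. In wild type 8 of 10 fell with LPS, where 28.6% of all genes fell, and in the knockout 2 of 10 fell, where 12.9% did, with median log2 changes of -1.21 and -0.43. With LPS, 3 of 10 were higher in the knockout than in wild type, where 8.74% of all genes were. All 10 had counts in every library. Their part in the fall of Col4a3, Col4a4 and Col4a5 was not tested.

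Among the fibrillar collagens, 7 of 9 tested genes fell with LPS in wild type and none rose, while in the knockout 4 rose and 1 fell. Over all genes 28.6% fell and 28.4% rose in wild type, and 14.7% rose and 12.9% fell in the knockout. The genes that rose in the knockout were Col1a1 (chr11:94936224-94953042, plus strand), Col1a2 (chr6:4504814-4541544, plus), Col3a1 (chr1:45311538-45349706, plus) and Col5a1. The RefSeq promoter window of Col1a2 at chr6:4505368-4505667 is shown as an example of the type I genes, with CCAAT letters on either strand in capitals.
Col1a2: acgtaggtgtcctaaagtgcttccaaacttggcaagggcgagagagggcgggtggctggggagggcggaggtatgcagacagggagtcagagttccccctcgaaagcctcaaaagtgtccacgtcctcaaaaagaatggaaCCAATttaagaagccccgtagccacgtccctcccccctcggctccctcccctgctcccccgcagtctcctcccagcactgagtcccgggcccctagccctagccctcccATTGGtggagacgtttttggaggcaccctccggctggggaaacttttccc

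Col1a1, the major chain of type I collagen, stood at 11.2, 11.3 and 13.1 CPM in wild-type saline and at 3.74, 6.79, 7.94 and 4.18 in wild-type LPS. It stood at 8.04, 5.7 and 6.08 CPM in knockout saline and at 13.4, 54.9 and 70.5 in AKI-156, AKI-320 and AKI-381. All 3 knockout LPS libraries lay above all other libraries, AKI-156 by little and the other 2 several-fold. The log2 change with LPS was -1.06 ± 0.42 in wild type (adjusted p = 0.0454, edgeR), which lost its call under 10 of the 13 removals of 1 library and in limma-voom, and 2.81 ± 0.47 in the knockout (adjusted p = 0.000639, edgeR), or 3.25 without AKI-156. Between the LPS groups the knockout was higher by 3.03 ± 0.43 (adjusted p = 0.00301, edgeR), or 3.46 without AKI-156. Over all alternatives the rise in the knockout ranged from 2.38 to 3.25 and the difference between the LPS groups from 2.6 to 3.46.

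Col1a2, the second chain of type I, stood at 35.2, 33.3 and 44 CPM in wild-type saline, 33.6, 22.8 and 22 in knockout saline, 18.3, 21.5, 22.8 and 14.4 in wild-type LPS and 38, 77 and 103 in knockout LPS. It fell by 0.96 ± 0.28 on the log2 scale with LPS in wild type (adjusted p = 0.0103, edgeR) and rose by 1.47 ± 0.31 in the knockout (adjusted p = 0.00291, edgeR). The LPS groups differed by 1.91 ± 0.28 (adjusted p = 0.00337, edgeR). Without AKI-156 the rise in the knockout was 1.78 and the difference 2.22. Over all alternatives they ranged from 1.14 to 1.78 and from 1.59 to 2.27. The ratio of Col1a1 to Col1a2 per kilobase was 0.693 to 0.794 in wild-type saline and 0.479 to 0.815 in wild-type LPS, and in knockout LPS it was 0.825 in AKI-156, 1.67 in AKI-320 and 1.61 in AKI-381.

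Col3a1, which forms the fine reticular fibres that accompany type I, stood at 18.1, 19.6 and 23.7 CPM in wild-type saline and 22.4, 37.9, 27.9 and 16 in wild-type LPS, overlapping ranges with a log2 change of 0.35 ± 0.32 (adjusted p = 0.363, edgeR). In the knockout it went from 16.3, 11 and 6.92 CPM in saline to 63.2, 94.1 and 118 with LPS, a log2 rise of 3.01 ± 0.36 (adjusted p = 4.71e-05, edgeR), and the LPS groups differed by 1.81 ± 0.31 (adjusted p = 0.00476, edgeR). These were 3.22 and 2.02 without AKI-156, and over all alternatives they ranged from 2.75 to 3.36 and from 1.6 to 2.16. Col5a1, a type V chain that takes part in starting fibrils, fell by 1.35 ± 0.43 on the log2 scale in wild type (adjusted p = 0.0147, edgeR) and rose by 1.42 ± 0.45 in the knockout (adjusted p = 0.0311, edgeR). That rise lost its call without any 1 of the 3 knockout saline libraries, without AKI-320 or without AKI-381. Its level was 1.54 to 6.07 CPM in wild-type LPS and 7.39, 21.1 and 20.7 in knockout LPS, a log2 difference of 2.17 ± 0.42 (adjusted p = 0.00736, edgeR). Without AKI-156 the rise in the knockout was 1.77 and the difference 2.51. Over all alternatives they ranged from 1.21 to 1.77 and from 1.92 to 2.52.

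The remaining 5 tested fibrillar genes had no call in the knockout other than a fall of Col27a1. Col5a2, the partner of Col5a1 in type V, had log2 changes of 0.46 with LPS in wild type, 0.33 in the knockout and -0.33 between the LPS groups, none of which passed the test. Col27a1, the most abundant fibrillar gene in saline kidney at 166 to 227 CPM in wild type, fell in both genotypes, by 1.37 ± 0.28 in wild type (adjusted p = 0.000859, edgeR) and by 1.35 ± 0.30 in the knockout (adjusted p = 0.00452, edgeR), or 1.41 without AKI-156. Col5a3, Col11a2 and Col24a1 fell in wild type, by 1.85, 1.95 and 2.33 on the log2 scale, from means of 3.29, 1.81 and 2.2 CPM. The fall of Col5a3 lost its call without wild-type saline N3, with adjusted p = 0.0701 in edgeR. Col5a3 differed between the LPS groups by 1.42 on the log2 scale and Col11a2 by 1.01, with interaction values of 2.06 and 1.98, all higher in the knockout and none passing, and without AKI-156 Col5a3 passed both tests, at 1.87 and 2.52.

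**Figure D4:**
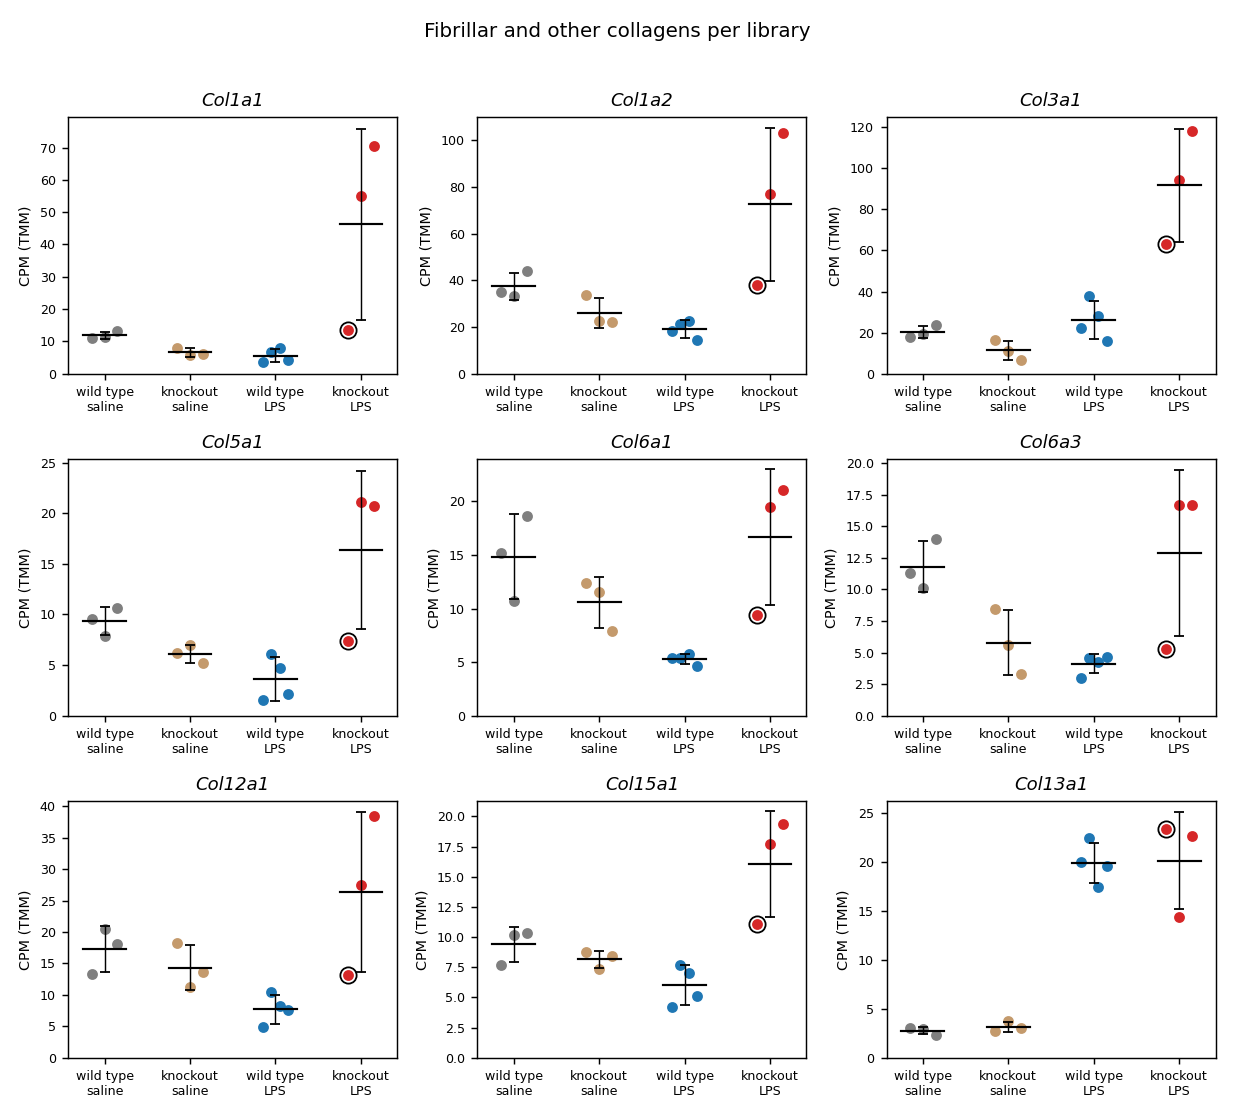
CPM with TMM scaling of 4 fibrillar and 5 other collagen genes in each library, by group. Points are libraries, black lines group means, bars SD, and AKI-156 is circled. For Col1a1 the 3 knockout LPS libraries lie at 13.4, 54.9 and 70.5 CPM and all other libraries at 13.1 CPM or below, with AKI-156 the lowest of the 3.

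Summed markers of the cells that make fibrillar collagen overlapped between the LPS groups, while some single markers were higher in the knockout. The 17 markers of fibroblasts, pericytes and mesangial cells summed to 583 to 648 CPM in wild-type saline, 442 to 527 in knockout saline, 300 to 494 in wild-type LPS and, in knockout LPS, 443 in AKI-156, 722 in AKI-320 and 535 in AKI-381. In wild type 10 of 17 fell with LPS, where 28.6% of all genes fell, and none rose, where 28.4% did. In the knockout 4 fell, where 12.9% of all genes did, and 2 rose, where 14.7% did. The median log2 changes of the markers were -1.21 and -0.62. With LPS, 5 of 17 were higher in the knockout than in wild type, where 8.74% of all genes were. The number lower was 0, where 6.29% of all genes were. Gli1 was at 0 in at least 1 wild-type LPS library, and the other 16 had counts in all 13. The platelet-derived growth factor receptor Pdgfra stood at 33.3 to 68.5 CPM in wild-type LPS and 102, 88.3 and 104 in knockout LPS. Gas1 stood at 8.5 to 12 and 17.8, 18.1 and 18.5, also without overlap. Pdgfrb stood at 30.4 to 66.1 and 60, 109 and 97.3, with AKI-156 inside the wild-type range. Some other markers overlapped, with Itga8, an integrin chain of mesangial cells, at 3.34 to 5.47 and 5.85, 9.91 and 5.24, and the smooth muscle myosin Myh11 at 10.8 to 29.2 and 17.7, 37.7 and 24.4. The part of these markers in the collagen differences was not tested.

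The beaded-filament collagen, type VI, links fibrils to cell surfaces and basement membranes. Of its chains Col6a1, Col6a2 and Col6a3 were tested. All 3 fell with LPS in wild type, where 28.6% of all genes fell, by 1.48, 1.29 and 1.52 on the log2 scale. Col6a1 stood at 15.2, 10.7 and 18.6 CPM in wild-type saline, 12.4, 11.5 and 7.87 in knockout saline, 5.42, 5.36, 5.79 and 4.63 in wild-type LPS and 9.38, 19.5 and 21.1 in knockout LPS. The LPS groups did not overlap, and the knockout was higher by 1.65 ± 0.28 on the log2 scale (adjusted p = 0.00466, edgeR), or 1.93 without AKI-156 and 1.46 to 2.02 over all alternatives. Col6a2 and Col6a3 were higher by 1.58 ± 0.36 (adjusted p = 0.0126) and 1.65 ± 0.38 (adjusted p = 0.0133) in the same test, calls that ended without AKI-381 for both and without AKI-320 for Col6a3, and they were 1.85 and 2.02 without AKI-156. In the knockout the log2 changes with LPS were 0.65 and 0.81 for Col6a1 and Col6a2, which did not pass, though Col6a1 did without AKI-156, at 0.94. For Col6a3 the change was 1.15 ± 0.40 (adjusted p = 0.0467, edgeR), with overlapping ranges and a call that ended under 10 of the 13 removals of 1 library, in limma-voom and in the 2 groups alone, and it was 1.53 without AKI-156. The Col6a1 window at chr10:76725995-76726294 (minus strand) was the only one of 38 collagen windows with the AP-1 letters TGANTCA, in capitals here, and is shown because the title of the study names AP-1.
Col6a1: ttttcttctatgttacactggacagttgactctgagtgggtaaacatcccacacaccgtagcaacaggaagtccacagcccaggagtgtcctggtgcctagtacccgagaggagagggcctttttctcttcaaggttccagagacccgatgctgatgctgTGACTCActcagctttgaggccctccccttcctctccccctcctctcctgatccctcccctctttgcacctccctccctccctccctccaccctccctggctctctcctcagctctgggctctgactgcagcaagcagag

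Those letters, searched on both strands, were in 2.63% of the collagen windows and in 7.81% of all 32851 windows of that length. The kappa-B consensus was in 18.4% of collagen windows and 8.46% of all windows, the GC box GGGCGG in 60.5% and 35.7%, CCAAT in 34.2% and 37.4%, and TATAAA in 13.2% and 13.6%. Windows matched 35 of the 44 symbols, 25 of them tested, and windows that overlap, as those of Col4a1 and Col4a2 do, were counted separately.

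The multiplexins Col15a1 and Col18a1 are carried at the basement membrane zone, and Col18a1 is the source of endostatin. Col15a1 stood at 7.69, 10.2 and 10.3 CPM in wild-type saline, 8.73, 7.36 and 8.41 in knockout saline, 4.18, 7.72, 7.03 and 5.16 in wild-type LPS and 11.1, 17.7 and 19.4 in knockout LPS. Its log2 change with LPS was -0.64 ± 0.25 in wild type (adjusted p = 0.0417, edgeR), a call that ended in limma-voom, without the count filter, in the 2 groups alone and under 7 of the 13 removals of 1 library, and 0.97 ± 0.27 in the knockout (adjusted p = 0.015, edgeR), which ended without knockout saline N2 or AKI-381. The LPS groups differed by 1.41 ± 0.25 (adjusted p = 0.0055, edgeR). Without AKI-156 the rise was 1.18 and the difference 1.62. Over all alternatives they ranged from 0.82 to 1.18 and from 1.26 to 1.75. Col18a1 stood at 151, 152 and 146 CPM in wild-type saline and 105, 173, 145 and 138 in wild-type LPS, with a log2 change of -0.09 ± 0.20 that was 0.02 without AKI-12. In the knockout it rose by 0.73 ± 0.22 (adjusted p = 0.0243, edgeR), to 140, 245 and 251 CPM, and that call ended without any 1 of the 3 knockout saline libraries, AKI-320 or AKI-381 and in the 2 groups alone. Without AKI-156 the rise was 0.96, and the difference between the LPS groups, 0.59 with it and not called, passed at 0.82.

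Of the fibril-associated collagens, which sit on fibril surfaces, Col12a1 and Col16a1 fell with LPS in wild type and Col14a1 and Col20a1 did not pass any test. Col20a1 had log2 values of 0.96 with LPS in wild type (adjusted p = 0.072, edgeR), called in DESeq2 and at 1.22 without AKI-13, and -1.36 between the LPS groups (adjusted p = 0.0521, edgeR), called in DESeq2, under RLE factors and at -1.62 without AKI-13. Col12a1 stood at 13.3, 20.5 and 18.1 CPM in wild-type saline, 4.84, 10.4, 8.2 and 7.52 in wild-type LPS and 13.2, 27.5 and 38.5 in knockout LPS. It fell by 1.16 ± 0.33 on the log2 scale in wild type (adjusted p = 0.00891, edgeR) and was higher in the knockout with LPS by 1.77 ± 0.33 (adjusted p = 0.00638, edgeR), or 2.09 without AKI-156, when its rise in the knockout also passed, at 1.2. Over all alternatives the difference between the LPS groups ranged from 1.4 to 2.12. Col16a1 fell by 1.57 ± 0.24 in wild type (adjusted p = 0.000103, edgeR). The LPS groups differed in it by 0.71 ± 0.24 (adjusted p = 0.0629, edgeR), and by 0.95 with a call without AKI-156.

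The transmembrane collagen Col13a1 (chr10:61838236-61979108, minus strand), found at cell-matrix junctions, was the third gene that rose in wild type. It stood at 3, 2.95 and 2.37 CPM in wild-type saline and 20, 22.4, 17.4 and 19.6 with LPS, a log2 rise of 2.83 ± 0.23 (adjusted p = 6.64e-07, edgeR). In the knockout it went from 2.76, 3.74 and 3.04 CPM to 23.3, 14.4 and 22.6, a rise of 2.66 ± 0.23 (adjusted p = 4.32e-06, edgeR) and of 2.54 without AKI-156, so AKI-156 was the highest of its group here. Col23a1, of the same class, fell in both genotypes, by 1.73 ± 0.41 in wild type (adjusted p = 0.00253, edgeR) and 1.68 ± 0.44 in the knockout (adjusted p = 0.0123, edgeR), the latter without a call when knockout saline N3 was removed and 1.27 without AKI-156. Col17a1, the hemidesmosome collagen, was the gene lower in the knockout with LPS, at -2.78 ± 0.89 (adjusted p = 0.05, edgeR, just under the threshold), on 7 to 38 counts in wild type and 1 to 6 in the knockout. Its call ended under library totals, in limma-voom, without the count filter and in 9 of the 13 fits that removed 1 library, and without AKI-12 or AKI-319 its counts were too low to be tested. Its value was -2.37 and uncalled without AKI-156.

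Col8a1, a short-chain collagen of vessels and mesangium, fell with LPS in wild type by 1.87 ± 0.33 (adjusted p = 0.000307, edgeR), from 15.3 to 18.1 CPM down to 2.73 to 6.43. Its fall of 1.01 ± 0.34 in the knockout (adjusted p = 0.042, edgeR) had overlapping ranges and lost its call under library totals and in 7 of the 13 fits that removed 1 library, and its difference of 1.05 ± 0.33 between the LPS groups (adjusted p = 0.0468, edgeR) lost its call in 9 of them, in limma-voom and under RLE factors. Without AKI-156 the fall was 0.88 and uncalled and the difference 1.18 and called. Col26a1 and Col28a1 fell in wild type, by 3.78 and 2.02 on the log2 scale, with at most 15 and 4 counts per library after LPS, and the call of Col28a1 ended without wild-type saline N2 or without the count filter. Col26a1 was higher in the knockout with LPS by 2.59 ± 0.77 (adjusted p = 0.0391, edgeR), with overlapping ranges and a call that ended without AKI-320, AKI-381 or any 1 of 9 other libraries, and it was 2.97 and called without AKI-156. Col28a1 also fell in the knockout, by 2.57 ± 0.87 (adjusted p = 0.041, edgeR), to at most 2 counts, a call that ended in 9 of the 13 removals, under library totals and without the count filter, and without AKI-156 it was 2.06 and uncalled.

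**Figure D5:**
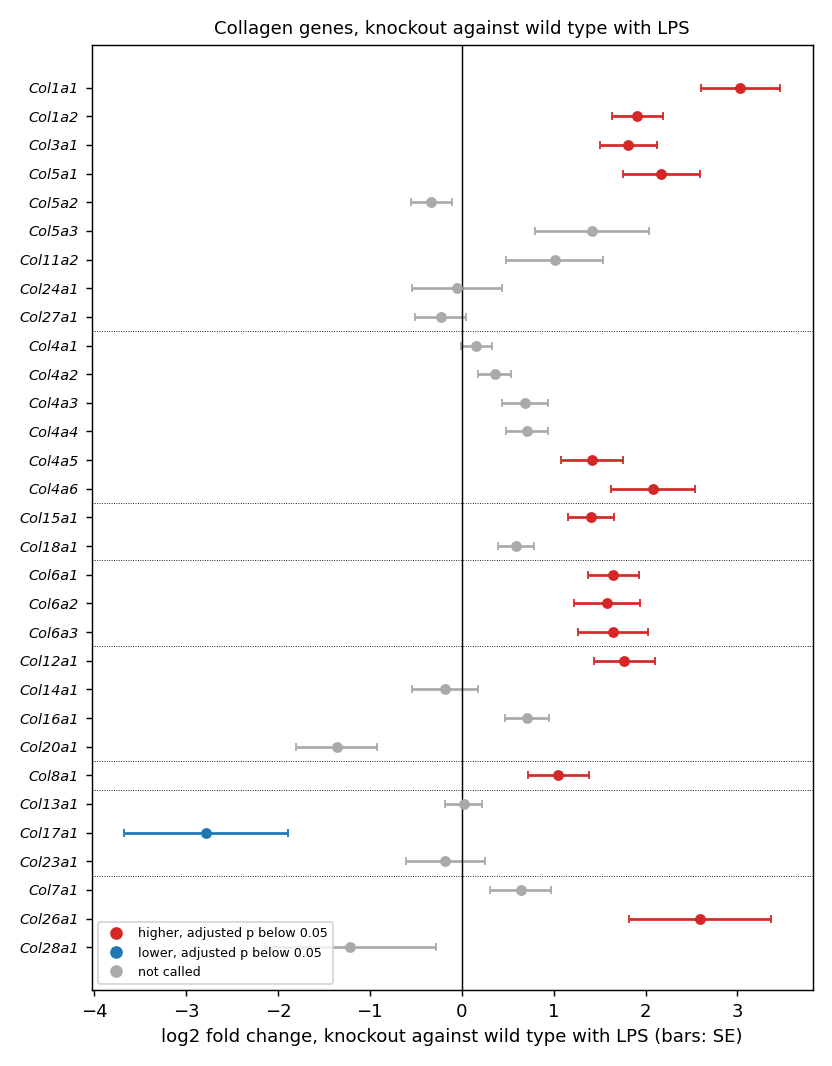
Log2 fold change of each tested collagen gene between knockout and wild type among the LPS libraries, with bars of 1 standard error. Genes right of 0 were higher in the knockout. Col1a1 lies farthest right at 3.03, and Col17a1 farthest left at -2.78.

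Of the 13 collagens higher in the knockout with LPS, Col4a5 and Col26a1 had LPS groups that overlapped. The number of collagens called higher depended on which library of the knockout was present, at 20 without AKI-156, 8 without AKI-320 and 7 without AKI-381. It was 4 in a fit on the LPS libraries alone, where Col1a1, Col1a2, Col3a1 and Col6a1 passed. With library totals in place of TMM scaling, 87.4% of the calls over all genes were higher in the knockout, against 58.2% with TMM, and the median of all genes shifted by 0.34 on the log2 scale. The comparisons of LPS with saline in wild type and of knockout with wild type under LPS share the wild-type LPS libraries. Macrophage and endothelial markers also differed between the LPS groups, with 6 of 8 and 6 of 11 higher in the knockout and 2 endothelial markers lower. Over all genes 8.74% were higher and 6.29% lower. Summed macrophage markers were 50.2 to 66.5 CPM in wild-type LPS and 100 to 116 in knockout LPS, and endothelial markers 460 to 622 and 682 to 849. Fat-cell markers summed to 59.3 to 262 CPM in wild-type saline, 17.7 to 120 in knockout saline, 4.69 to 41.6 in wild-type LPS and 8.31 to 55.7 in knockout LPS. Of 5 tested, 4 fell with LPS in wild type, where 28.6% of all genes fell. In the knockout 0 fell, where 12.9% did, and 0 were called between genotypes. The part of these marker lists in the collagen differences was not tested.

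The interaction test passed for 8 of the 31 tested collagens, all with a more positive LPS-saline log2 change in the knockout than in wild type, where 1.36% of all genes passed in that direction, 0.745% in the other and 2.1% in either. With library totals, 89.5% of the calls over all genes were in that direction, against 64.5% with TMM. These were Col1a1 at 3.87 ± 0.63 on the log2 scale (adjusted p = 0.0208, edgeR), Col1a2 at 2.44 ± 0.42 (adjusted p = 0.0258), Col3a1 at 2.66 ± 0.46 (adjusted p = 0.0258), Col5a1 at 2.77 ± 0.62 (adjusted p = 0.0423), Col6a1 at 2.13 ± 0.41 (adjusted p = 0.0315), Col6a3 at 2.67 ± 0.55 (adjusted p = 0.0385), Col12a1 at 2.04 ± 0.49 (adjusted p = 0.048) and Col15a1 at 1.61 ± 0.37 (adjusted p = 0.0434). None passed in the opposite direction, and none had an unadjusted p below 0.05 there in edgeR, DESeq2 or limma-voom. Over all alternatives the log2 values ranged from 3.44 to 4.31 for Col1a1, 2.11 to 2.82 for Col1a2, 2.4 to 3.03 for Col3a1 and 1.47 to 1.98 for Col15a1, all positive, while the adjusted p-values crossed 0.05. No call was left without AKI-320, without AKI-381, without any 1 of the wild-type saline libraries or without knockout saline N2 or N3, 3 were left without knockout saline N1 or AKI-319 and 4 without AKI-317, while 16 collagens passed without AKI-156. In limma-voom 2 passed, Col1a2 and Col3a1. The LPS mice were male and the saline mice female by transcripts, so treatment and sex cannot be told apart in the interaction. The saline groups also enter it. Between them the 8 genes had log2 values from -1.03 (Col6a3) to -0.2 (Col15a1), lower in the knockout and none called. Mean Col6a1 and Col6a3 were 16.6 and 12.9 CPM in knockout LPS and 14.8 and 11.8 in wild-type saline.

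Without LPS, no collagen gene passed between knockout and wild type, where 0.0191% of all tested genes did, 0.00637% higher and 0.0127% lower. edgeR, DESeq2 and limma-voom each called 0, and each had 3 collagens with an unadjusted p below 0.05, namely Col3a1, Col24a1 and Col6a3, all lower in the knockout. Col24a1 had a log2 difference of -1.83 ± 0.46 (adjusted p = 0.659, edgeR). Col3a1 had -0.84 ± 0.34 and Col6a3 -1.03 ± 0.40. The median log2 difference over the 31 tested collagens was -0.28, against 0 over all genes.

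Counts in the lists that follow stand beside 28.4% of all tested genes that rose and 28.6% that fell with LPS in wild type, 14.7% and 12.9% in the knockout, and 8.74% that were higher and 6.29% lower in the knockout between the LPS groups. Of 21 tested synthesis enzymes and chaperones, 6 rose and 5 fell with LPS in wild type, and 3 rose and 3 fell in the knockout, shares near those of all genes. The prolyl 3-hydroxylase P3h2, which acts on basement membrane collagen, fell from a mean of 189 CPM to 32.8 in wild type, by 2.53 ± 0.17 on the log2 scale (adjusted p = 2.08e-07, edgeR), and by 1.66 ± 0.18 in the knockout (adjusted p = 2.86e-05, edgeR). The collagen galactosyltransferase Colgalt2 fell by 2.32 in wild type and 1.46 in the knockout, and the lysyl hydroxylase Plod3 rose by 1.06 in wild type. Between the LPS groups 6 were higher in the knockout and 0 lower, P3h4 by 1.25, P3h2 by 0.72 and Fkbp14, a chaperone, by 0.82 among them. That count was 11 without AKI-156 and 0 without AKI-320 or AKI-381 or in the LPS groups alone, and the 3 rises in the knockout became 5 without AKI-156.

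Of 15 tested genes of procollagen processing and crosslinking, 5 rose and 6 fell in wild type, and 7 rose and 2 fell in the knockout. Lysyl oxidase (Lox), which crosslinks fibrils, rose from 9.76 ± 0.848 CPM (SD, n = 3) to 59.6 ± 18.5 (SD, n = 4) in wild type and from 9.78 ± 1.94 (SD, n = 3) to 62.7 ± 14.1 (SD, n = 3) in the knockout, by 2.61 and 2.68 on the log2 scale. Adamts2, which removes the N-propeptide of fibrillar procollagens, rose by 2.55 in wild type and 3.53 in the knockout. Loxl1 rose by 1.93 and 2.61, and Loxl4 fell by 3.90 in wild type. In wild type, then, Lox, Loxl1 and Adamts2 rose with LPS while Col1a1, Col1a2 and Col5a1 fell. Between the LPS groups 3 of the 15 were higher in the knockout, Loxl4 by 1.74, Loxl2 by 0.98 and Adamts2 by 0.90, and the meprin Mep1b was lower, at -1.5. 1 of the 3 was left without AKI-320 and 1 without AKI-381, and 0 in the LPS groups alone, and the call of Mep1b ended in the same fits.

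Among 9 tested collagen receptors, 4 rose and 3 fell in wild type, and 3 rose and none fell in the knockout. The integrin chain Itga2 rose by 2.29 in wild type and 3.03 in the knockout, and its relative Itga1 fell by 1.99 in wild type. Mrc2, an endocytic receptor that takes up collagen fragments, stood at 11.2 to 12.6 CPM in wild-type saline and 1.03 to 3.65 in wild-type LPS, a fall of 2.35 ± 0.40 (adjusted p = 0.000246, edgeR). With LPS it was higher in the knockout by 2.34 ± 0.40 (adjusted p = 0.00466, edgeR), at 4.88 to 17 CPM, and Adgrg1 was higher by 0.77. That count of 2 was 1 without AKI-381, 0 in the LPS groups alone and 4 under library totals.

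Of 23 other basement membrane components, 8 rose and 9 fell in wild type, 7 rose and 3 fell in the knockout, and between the LPS groups 7 were higher and 1 lower in the knockout. The Fraser-complex genes Fras1 and Frem2 fell by 2.69 and 3.71 in wild type and were higher in the knockout with LPS by 1.16 and 2.79. Smoc2, Nid1 and Sparc rose by 2.47, 1.30 and 1.23 in the knockout. The count higher in the knockout was 11 without AKI-156, 4 without AKI-320, 2 without AKI-381 and 1 in the LPS groups alone, and the 1 lower became 2 without AKI-156 and 0 without AKI-320 or AKI-381.

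Of 17 fibril-binding proteoglycans and glycoproteins, 3 rose and 7 fell in wild type, and 5 rose and 5 fell in the knockout, with 3 falls without AKI-156 and 2 under library totals. Decorin (Dcn), which coats collagen fibrils, rose in both, by 2.73 and 2.44, to 249 to 555 CPM in wild-type LPS. Elastin (Eln) and Tnxb fell in wild type, by 2.22 and 2.63, and were higher in the knockout with LPS by 1.64 and 1.5, and fibrillin (Fbn1) was higher by 1.11. In all 4 were higher in the knockout and 1, Thbs1, was lower, at -0.74. The 4 became 2 without AKI-320 or AKI-381 and 0 in the LPS groups alone, and the 1 became 3 without AKI-156 and 0 without AKI-320 or AKI-381. Of 15 genes of TGF-beta signalling, a main inducer of fibrillar collagen, 8 rose and 4 fell in wild type, 5 rose and 1 fell in the knockout, and 3 were higher and 2 lower in the knockout with LPS. The 5 rises became 3 without AKI-381, the 3 higher became 1 without AKI-320 and 0 in the LPS groups alone, and the 2 lower became 4 without AKI-156 and 0 without AKI-320 or AKI-381. Tgfbi, a target of the pathway, rose by 2.06 in the knockout and was higher there than in wild type with LPS by 1.12, at a mean of 46 CPM against 21.2. The ligand Tgfb2 fell in both genotypes, by 1.38 and 2.03. No gene of these lists passed between the saline groups.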

How the data were processed

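Total RNA of whole kidney was sequenced from 13 mice, with libraries made by standard Illumina protocols per the labels. The authors deposited 1 table with whole-number counts per gene and FPKM per library, per the file headers. Per the submitters' processing notes the tools were HISAT2, edgeR, TopHat and TopHat2 (version 2.0.9) with the build hg38, and no step is tied to any of them, although the table holds mouse gene IDs, and neither the strand setting nor the counting tool is given in the sources used here. Reads of overlapping or near-identical genes could therefore be shared, as at the 22 bases common to Col4a1 and Col4a2. Of the members, 42 of 44 had the coordinates of the GENCODE M21 annotation (GRCm38). All 26 value columns were mapped to a sample by name, and 0 were left out.

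Counts were tested with edgeR 4.0.16 in R 4.3.3 (quasi-likelihood test, TMM factors, filterByExpr with a minimum count of 10, which kept 15703 of 34745 genes, Benjamini-Hochberg adjustment, threshold 0.05), with all 13 libraries in 1 fit, a mean per group and 5 contrasts. Library totals and TMM factors of 0.7724 to 1.193 set the precision, and 99.928 to 99.958% of counts were in tested genes. CPM were computed from the counts and divided by the gene length that the deposited FPKM values imply, which varied by at most 0.0976% between libraries for a gene. FPKM was used for nothing else. Standard errors were derived as the absolute log2 change over √F. Alternatives were DESeq2 1.42.0, limma-voom (limma 3.58.1), other scalings and filters, only the groups compared, a minimum absolute log2 change of 1, each library left out and a replicate block.

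The members, lists and tests were chosen with earlier results of these data known. Any collagen gene with a count could be named, and of each other list up to 4 called genes with the smallest p per comparison, or, with none called, the 2 of highest mean level. The saline groups share the numbers N1 to N3. Deviations from the group means correlated at 0.02, -0.05 and -0.03 between libraries of the same number, so the numbers were not taken to pair mice. No 2 libraries of a group were alike within counting noise, with chi-square per degree of freedom of 12.47 to 121.5 between them. Promoter windows and letters come from RefSeq (GRCm38.p6). Some genes of the lists are counted but not reported by name here.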

Additional observations from a re-analysis of the deposited data

Results flagged for a closer look

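Col26a1, a collagen of low level in kidney, stood at 1.07 CPM in AKI-13 and at 0 to 0.0759 CPM in the other 3 wild-type LPS libraries, a gap that made up 0.929 of the range of the group. This criterion marks about 1 in 20 groups by chance, and 31 genes were examined.

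For 8 collagens the difference between LPS and saline itself differed between the genotypes in the interaction test, with log2 values of 3.87 for Col1a1, 2.44 for Col1a2, 2.66 for Col3a1, 2.77 for Col5a1, 1.61 for Col15a1, 2.13 for Col6a1, 2.67 for Col6a3 and 2.04 for Col12a1. All 8 are positive, and in all of them treatment and sex cannot be told apart. Without AKI-320 or AKI-381 their log2 values ranged from 1.47 for Col15a1 to 3.74 for Col1a1, and none passed the adjusted threshold, while 16 collagens passed without AKI-156.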

How the results depend on the processing

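The number of collagens that rose with LPS in wild type was 3, with 5 in DESeq2 and 3 to 5 when each library was left out, the 5 without AKI-13. The number that fell there was 21, with 19 to 24 on leaving out libraries. In the knockout 10 rose, with 6 to 13 on leaving out libraries, and 7 fell, with 3 under library totals, 4 in a fit of only the groups compared and 3 to 8 on leaving out libraries, of which 3 or 4 without any 1 of the 6 saline libraries. The 6 rises were those without knockout saline N2 and without AKI-381. Between the LPS groups 13 were higher in the knockout, with 4 in a fit of only the groups compared and 7 to 20 on leaving out libraries. Col17a1, the 1 gene lower there, was joined by Col20a1 under RLE factors and DESeq2 (count 2), and the count was 0 under library totals, limma-voom, a filter keeping genes that reach 1 CPM in 3 libraries and the groups compared alone, with 0 to 2 on leaving out libraries. The interaction count was 8 higher, with 2 in limma-voom and 0 to 16 on leaving out libraries, and 0 lower throughout. With the replicate block on the saline libraries 0 collagens were called higher and 0 lower, as without it, with 9 at an unadjusted p below 0.05 instead of 3, all lower in the knockout. Values that changed sign were those of Col18a1 with LPS in wild type (-0.09, with 0.02 without AKI-12, -0.2 without AKI-13 and -0.27 under library totals), Col4a1 between the LPS groups (0.16, with -0.02 without AKI-381, 0.34 without AKI-320 and 0.5 under library totals) and Col5a2 between the LPS groups (-0.33, with 0.01 under library totals and -0.5 without AKI-156), none of them called. Over 166 gene results and 3468 recomputed values, 3067 kept direction and side of the threshold, 372 lost their call, 26 gained one and 3 changed sign. Fits without a library or on fewer groups have fewer samples to estimate the spread. For the other changes the cause was not tested. The 12 collagens under the count filter could not be tested at this depth.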
